A study of Mus musculus with 6 samples.

Results

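Gata6, Hnf4a, Foxa1, Foxa2, Foxa3, Elf3, Pdx1 and Sox9, transcription factors that set and keep pancreatic and foregut epithelial identity, were followed across the 6 RNA-seq libraries of a Pthlh knockdown study in mouse pancreatic tumour cells. The 8 genes were taken by name from a table of 24493 genes, and all 8 were found. The libraries came from KPCY cells of C57BL/6 background, 2 for each of 3 short hairpin RNAs: shPthlh oligo #1 (hairpin 1), shPthlh oligo #2 (hairpin 2) and the non-targeting control shNT. Every library was transduced with a hairpin, and KPCY names a mouse model of pancreatic cancer in which Cre under the Pdx1 promoter switches on mutant Trp53 and a yellow fluorescent lineage label. The study set Pthlh knockdown against Pthlh-intact cells in a pair of parental tumour cell clones, but which clone each library came from is not labelled, so hairpin and clone cannot be told apart. The labels call the material tumour cells sorted out of mice, while the protocols describe growth in DMEM and transduction, which leaves the state of the cells at RNA extraction unsettled. Nothing states that the replicates were separate cultures or animals, so p-values cover only the spread among the libraries, and that spread may be technical.

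As background, these factors act in layers. FOXA proteins are pioneer factors that open closed chromatin in endoderm, and GATA6 and HNF4A act with them to keep foregut, liver and gut genes on. PDX1 specifies the pancreatic and duodenal domain of the gut tube and later maintains beta cells, SOX9 marks pancreatic progenitors and adult ducts, and ELF3 is an ETS factor of differentiated epithelia. In pancreatic ductal carcinoma, high GATA6, HNF4A and FOXA1/2 are known as features of the classical subtype, and their loss as a feature of the basal-like subtype.

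Values are TPM, transcripts per 1000000, which are corrected for transcript length and can be set side by side between genes; the number of reads per library is unknown. Pthlh, which encodes parathyroid hormone-related protein, stood at 0 and 0.106 TPM with hairpin 1, at 0.0423 and 0.263 TPM with hairpin 2 and at 0.752 and 0.966 TPM with shNT, below the expression filter. The Mir6236 entry, annotated as a miRNA, took 19.7% to 20.4% of all TPM with hairpin 1, 21.4% to 23.4% with hairpin 2 and 24.3% to 34.1% with shNT, so the remaining genes shared unequal totals. The median log2 change of all tested genes was 0.11 with hairpin 1 and 0.09 with hairpin 2; it was 0.02 and 0.00 after median-ratio scaling, and -0.06 and -0.03 with small-RNA entries left out.

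The epithelial label was checked against 14 markers, of which 8 reached 1 TPM in any library. Cdh1, Krt7, Krt8, Krt18 and Krt19 were high, but Epcam reached only 0.605 TPM in its highest library. Cldn3, Cldn4, Grhl2, Esrp1 and Ovol1 stayed below that value in every library. The summed epithelial markers ran from 4418 to 4487 TPM with hairpin 1, from 3794 to 3890 TPM with hairpin 2 and from 4027 to 4184 TPM with shNT. Without Krt8, the highest of them, the sum was 2669 TPM in both hairpin 1 libraries, 2479 and 2504.5 TPM with hairpin 2, against 2705 and 2548 TPM with shNT. Of the 8 epithelial markers tested by limma with hairpin 1, 3 passed as higher and 4 as lower, beside 32.1% and 18.1% of all tested genes. None of 10 islet, 10 fibroblast or 8 endothelial markers reached 1 TPM; Ins1, Ins2, Gcg, Sst and Ppy among the islet markers, Lum and Pdpn among the fibroblast markers, and Emcn and Cldn5 among the endothelial markers were at 0 in every library. Of 12 acinar markers 2 reached 1 TPM and 6 were at 0, and the sum ran from 13.9 to 14.0 TPM with hairpin 1, was 12.3 TPM in both hairpin 2 libraries and ran from 15.0 to 20.4 TPM with shNT, nearly all of it Cela1. Of 10 hepatocyte markers 5 reached 1 TPM and none was at 0 throughout; their sum was 14.8 to 19.99 TPM with hairpin 1, 36.4 to 37.5 TPM with hairpin 2 and 39.9 to 42.0 TPM with shNT, led by Trf. Without Trf the hepatocyte sum was above shNT with each hairpin, at 12.3 and 8.70 TPM with hairpin 1, 8.27 and 7.59 TPM with hairpin 2, against 1.60 and 2.05 TPM with shNT. Alb, the albumin gene, had 5.56 and 4.57 TPM with hairpin 1, 2.95 and 2.30 TPM with hairpin 2, against 0.0289 and 0.0526 TPM with shNT. Both Alb differences from shNT passed as higher, with limma adjusted p-values of 0.000184 for hairpin 1 and 0.00756 for hairpin 2. The hairpin 2 call was lost without hairpin 2 replicate 1 or replicate 2, where the log2 difference was 1.67 and 1.92, beside 1.80 with all libraries. Of 9 enterocyte markers 4 reached 1 TPM, with Sis and Slc5a1 at 0; the sum was 208 to 212 TPM with hairpin 1, 165 to 167 TPM with hairpin 2 and 149 to 165 TPM with shNT, most of it Krt20. Of 10 myeloid markers 2 reached 1 TPM, with Adgre1 and C1qa at 0, and their sum, mostly Cd14, was 76.6 to 78.9 TPM with hairpin 1, 62.0 to 62.8 TPM with hairpin 2 and 69.1 to 71.4 TPM with shNT. Of 8 neutrophil, 9 lymphocyte and 6 erythroid markers, 2, 1 and 1 reached 1 TPM, and no sum exceeded 3.59 TPM; Retnlg, Ngp, Cd3e, Nkg7, Gzmb, Hba-a2 and Hbb-bs were among those at 0 in every library. The part of these marker differences in the results on lineage factors was not tested.

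The 3 lineage factors whose group means lay furthest apart were Pdx1, Foxa1 and Elf3, and the sequence in front of each start site is shown so that these genes can be located and their promoters read. RefSeq (GRCm38.p6) gave promoters for 6 of the 8 genes. Each sequence is the part of the 250 bases before the RefSeq start that holds no annotated exon, 5′ to 3′ on the gene's strand, with matches to the searched letters in capitals. The Foxa1 stretch (chr12:57546122-57546361, minus strand) lies between annotated exons, inside the span of longer Foxa1 transcripts. The Elf3 stretch (chr1:135258569-135258722, minus strand) and the Pdx1 stretch (chr5:147269847-147269958, plus strand) lie directly before the annotated gene.
Foxa1: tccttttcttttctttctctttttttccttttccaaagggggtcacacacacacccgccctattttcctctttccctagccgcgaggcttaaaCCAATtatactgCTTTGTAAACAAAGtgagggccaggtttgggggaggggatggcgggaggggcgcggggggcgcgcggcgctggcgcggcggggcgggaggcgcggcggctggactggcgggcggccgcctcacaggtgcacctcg
Elf3: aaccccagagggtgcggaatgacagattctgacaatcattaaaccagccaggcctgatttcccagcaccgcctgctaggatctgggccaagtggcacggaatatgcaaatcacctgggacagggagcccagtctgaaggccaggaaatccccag
Pdx1: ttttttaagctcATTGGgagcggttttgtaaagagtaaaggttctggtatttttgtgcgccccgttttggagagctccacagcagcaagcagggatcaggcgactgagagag

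Both strands of the whole 250 bases were searched for the letters TGTTTAC of forkhead factors, AGATAA of the GATA family, TTTATG of CDX factors, CAAAGTCCA of HNF4 factors, CCGGAAG of ETS factors and ACAAAG of SOX factors. The cAMP response element (TGACGTCA), the AP-1 site (TGANTCA), the TATA box (TATAAA) and the CCAAT box were searched as well. The capitals in the Foxa1 stretch are a CCAAT match at position -157 and a run in which the forkhead letters, read on the other strand at -141, overlap SOX letters on the other strand at -145 and on the given strand at -137. Forkhead letters were in 3.17% and SOX letters in 16.5% of 32851 mouse promoter windows of the same length. Among the windows of the 6 matched genes, the forkhead letters were present in that of Foxa1. The capitals in the Pdx1 stretch are a CCAAT match on the other strand at -238, a motif held by 33.85% of windows. The printed Elf3 stretch had no match. In the searched bases left out of the printed stretches, CCAAT stood at -93 for Elf3 and at -74 for Pdx1. SOX letters stood there on the other strand at -8 for Foxa1. A match is a description of letters and not of a binding site.

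The 8 factors spanned a wide range of levels. In hairpin 1 libraries Elf3 was highest, at 125.4 and 126.5 TPM, followed by Hnf4a, Foxa2 and Gata6, then Foxa1 and Pdx1, which overlapped each other, and last Sox9 and Foxa3. In hairpin 2 libraries Hnf4a was highest with 106.9 and 106.0 TPM, followed by Elf3 and Foxa2, which overlapped, then Gata6, then Sox9 and Foxa1, which overlapped, and last Foxa3 and Pdx1. In shNT libraries Hnf4a was highest with 117.1 and 112.0 TPM, followed by Elf3 and Foxa2, which overlapped, then Gata6, Sox9, Foxa3, Foxa1 and Pdx1. Neighbours in these orders that are not named as overlapping had separate libraries. Foxa1 stood at place 5 of the 8 with hairpin 1, at place 6 with hairpin 2 and at place 7 with shNT. Among all 24493 genes, Pdx1 had a higher mean than 71.7% with hairpin 1, 58.7% with hairpin 2 and 55.1% with shNT.

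**Figure D1:**
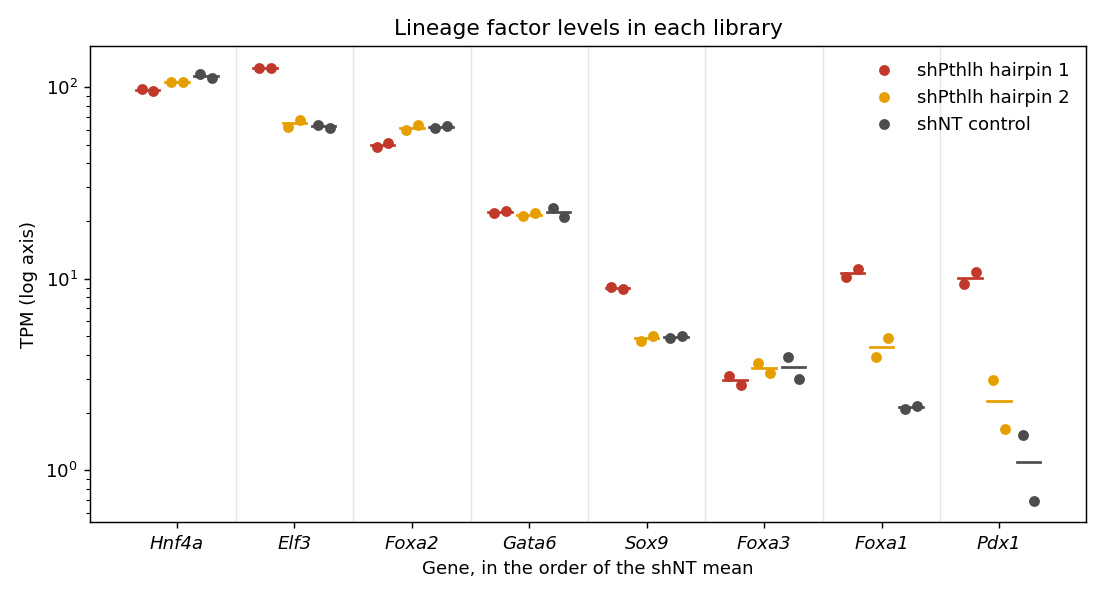
TPM of the 8 lineage factors on a log axis, with 1 point per library and a line at each group mean (2 libraries per group, hairpin 1, hairpin 2 and shNT from left to right). Elf3, Sox9, Foxa1 and Pdx1 are highest in both hairpin 1 libraries, while for Gata6 and Foxa3 the shNT libraries overlap those of each hairpin.

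With hairpin 1, 4 of the 8 factors were higher than with shNT (Foxa1, Elf3, Pdx1 and Sox9), 2 were lower (Hnf4a and Foxa2), and Gata6 and Foxa3 did not pass the test, limma with Benjamini-Hochberg adjustment over 11549 genes and a threshold of 0.05. Calls were frequent in this comparison: 50.2% of all tested genes passed, 32.1% as higher and 18.1% as lower. With hairpin 2, Foxa1 passed as higher and no factor as lower (0 also at an unadjusted limma p under 0.05), where 9.63% of all tested genes passed, 6.62% as higher and 3.0% as lower. Both comparisons use the same shNT libraries. The median change of the 8 was 0.37 with hairpin 1 and -0.01 with hairpin 2 on the log2(TPM + 1) scale, beside 0.11 and 0.09 for all tested genes. All 8 passed the filter of 1 TPM in 2 libraries; Pdx1 had 1 shNT library below that level. In bulk libraries, fewer cells of a type and less RNA per cell cannot be told apart.

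Between the hairpins themselves, 2 factors were higher with hairpin 2 than with hairpin 1 (Hnf4a and Foxa2) and 4 were lower (Foxa1, Elf3, Pdx1 and Sox9), where 40.1% of all genes passed, 19.9% as higher and 20.2% as lower. This comparison and hairpin 1 minus shNT share the hairpin 1 libraries with opposite signs, so their opposite directions are no separate result. The mean of both hairpin groups minus shNT, the comparison the study names, called the same 6 genes in the directions seen with hairpin 1 (4 higher and 2 lower), where 39.4% of all genes passed, 27.3% as higher and 12.1% as lower. With the hairpins treated as 1 group of 4 libraries, so that the difference between them counts as spread, limma called none of the 8 (1 higher and 0 lower at an unadjusted p under 0.05) and 1 of all 11549 genes (2567 at an unadjusted p under 0.05). The averaged calls of the 2 lower genes were also lost without any 1 of the 4 hairpin libraries, and that of Foxa2 without either shNT library. With single libraries left out, the averaged change ran from -0.21 to -0.14 for Hnf4a and from -0.18 to -0.13 for Foxa2. Foxa1, Elf3, Pdx1 and Sox9 kept their averaged calls in those fits. Calls over all genes fell too when a hairpin library was left out, so such losses were not confined to Hnf4a and Foxa2. Each hairpin is therefore given on its own.

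**Figure D2:**
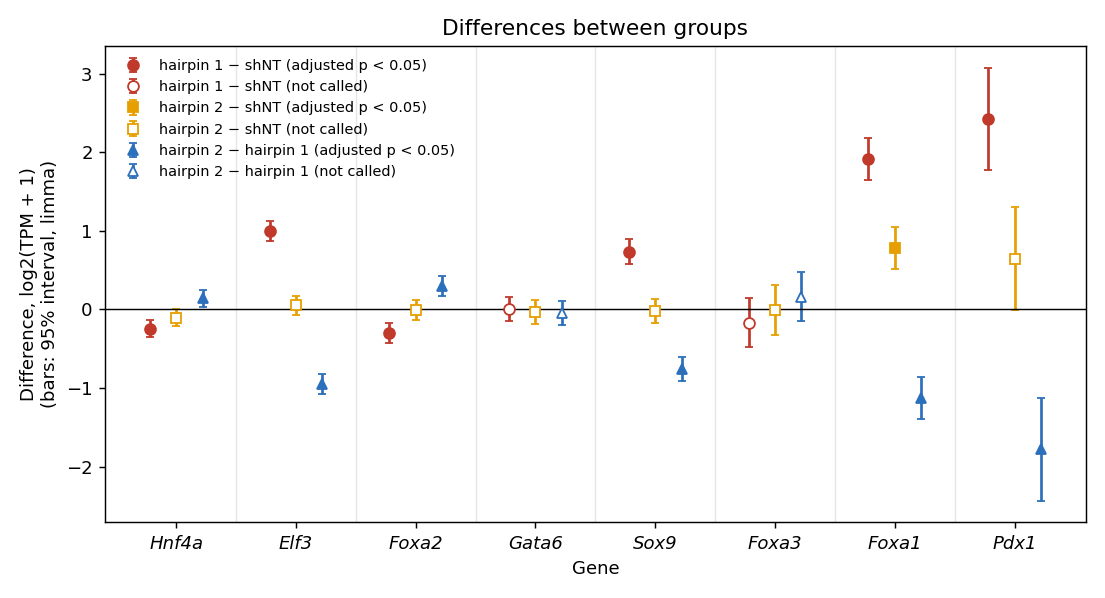
Differences between groups for each lineage factor on the log2(TPM + 1) scale, with 95% intervals from limma; filled symbols passed an adjusted p of 0.05. Hairpin 1 minus shNT and hairpin 2 minus hairpin 1 point in opposite directions for the 6 genes called with hairpin 1. Both differences use the hairpin 1 libraries, with opposite signs, so this pattern is largely built in and is no separate result.

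The FOXA pioneer factors differed from each other. Foxa1 (chr12:57540628-57546916, minus strand of GRCm38, as for all positions here) had 10.3 and 11.3 TPM with hairpin 1, 3.91 and 4.88 TPM with hairpin 2, against 2.08 and 2.18 TPM with shNT. The 3 groups did not overlap, and the order was hairpin 1, hairpin 2, shNT. The hairpin 1 mean was 5.06 times the shNT mean (log2 change 1.91 ± 0.11 SE, limma adjusted p = 0.000205), and the hairpin 2 mean 2.06 times (0.78 ± 0.11 SE, adjusted p = 0.0225). Hairpin 2 lay below hairpin 1 by a log2 difference of -1.13 (adjusted p = 0.00124). The hairpin 2 call was lost with hairpin 1 left out of the fit (limma adjusted p = 0.0718). In that fit 47 of all tested genes passed as higher and 51 as lower, against 765 and 347 in the main fit. The call was also lost without any single hairpin library, with the change at 0.65 to 0.91. Over all alternatives the change stayed between 0.65 and 1.00.

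Foxa2, the most abundant FOXA gene, had 48.9 and 50.9 TPM with hairpin 1, 59.6 and 63.3 TPM with hairpin 2, against 60.9 and 62.7 TPM with shNT. Both hairpin 1 libraries were lowest, and hairpin 2 overlapped shNT. The hairpin 1 mean was 80.7% of shNT (-0.30 ± 0.05 SE, limma adjusted p = 0.00517), and hairpin 2 differed from shNT by -0.01 (95% interval -0.14 to 0.12, adjusted p = 0.917). Hairpin 2 lay above hairpin 1 by 0.29 (adjusted p = 0.00771), a call lost without hairpin 1 replicate 1 (0.0582) or hairpin 2 replicate 2 (0.0566). Foxa3 (chr7:19013284-19023538), the liver-enriched member of the family, had 3.11 and 2.79 TPM with hairpin 1, 3.63 and 3.22 TPM with hairpin 2, against 3.92 and 2.98 TPM with shNT. The shNT libraries overlapped those of each hairpin, and both hairpin 1 libraries were below both hairpin 2 libraries. The difference from shNT was -0.17 (95% interval -0.48 to 0.15) with hairpin 1 and 0.00 to 2 decimals (interval -0.32 to 0.31) with hairpin 2, and hairpin 2 differed from hairpin 1 by 0.16 without passing (adjusted p = 0.351).

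Because FOXA1 and FOXA2 share a forkhead domain and can occupy many of the same sites, the 3 genes were also summed. The sum was 62.3 and 64.96 TPM with hairpin 1, 67.1 and 71.4 TPM with hairpin 2, against 66.9 and 67.9 TPM with shNT, so the hairpin 1 libraries were lowest by a small margin. Foxa1 made up 16.5% and 17.4% of that sum with hairpin 1, 5.82% and 6.83% with hairpin 2, and 3.11% and 3.21% with shNT. Foxa2 remained the largest share in every library, at 78.3% to 92.4%.

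**Figure D3:**
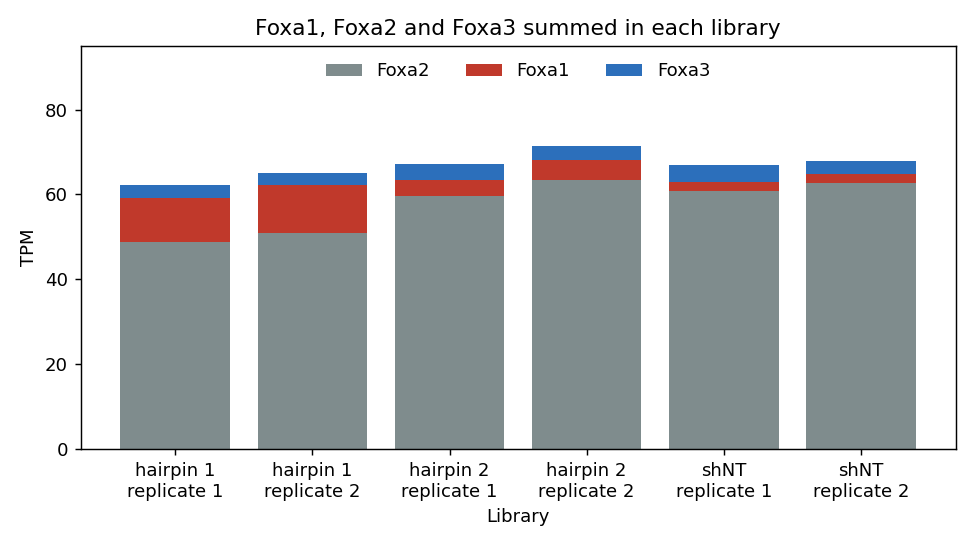
Stacked TPM of Foxa2, Foxa1 and Foxa3 in each of the 6 libraries. The totals lie between 62.3 and 71.4 TPM, and the Foxa1 band is widest in the 2 hairpin 1 libraries and narrowest in the 2 shNT libraries.

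Hnf4a, the nuclear receptor that maintains hepatic and intestinal gene expression, had 97.4 and 95.6 TPM with hairpin 1, 106.9 and 106.0 TPM with hairpin 2, against 117.1 and 112.0 TPM with shNT. The 3 groups did not overlap, with hairpin 1 lowest and shNT highest. The hairpin 1 mean was 84.3% of shNT (-0.24 ± 0.04 SE, limma adjusted p = 0.00643), a call that ended without hairpin 1 replicate 2 (0.0519). Hairpin 2 differed from shNT by -0.10 (95% interval -0.21 to 0.00, adjusted p = 0.163). Hairpin 2 lay above hairpin 1 by 0.14 with an adjusted p of 0.0497, and that call was lost in 12 further fits with the direction kept (adjusted p between 0.0157 and 0.213 over all alternatives), among them those without hairpin 1 replicate 1 (0.15) or 2 (0.213) and without hairpin 2 replicate 1 (0.21) or 2 (0.175).

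Hnf4a and Foxa2 both lie on chromosome 2 of GRCm38 (chr2:163506808-163572910 and chr2:148042877-148046969), where most genes were lower with hairpin 1. The median log2 change of 912 tested chromosome 2 genes was -0.27 with hairpin 1, 53.3% of them passed as lower and 6.14% as higher, while the medians of the other 19 chromosomes ran from -0.21 to 0.22. With hairpin 2 the chromosome 2 median was 0.01, and between hairpin 2 and hairpin 1 it was 0.28. The lower values covered the length of the chromosome: in 16 bins of 10 Mb with at least 20 genes the hairpin 1 medians ran from -0.38 to -0.20. Within 5 Mb on each side, the median was -0.25 over 71 genes around Hnf4a and -0.27 over 53 genes around Foxa2. Each gene's difference was then centred on the median of its chromosome, taken as known, and tested with its limma SE without a new fit. Hnf4a then differed by 0.03 with hairpin 1 (t-test on the limma SE, adjusted p = 0.671) and Foxa2 by -0.03 (0.618). Hairpin 2 against hairpin 1 then differed by -0.14 for Hnf4a (0.0529) and by 0.01 for Foxa2 (0.868). Foxa1, Elf3, Pdx1 and Sox9 kept their hairpin 1 calls under this centring.

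**Figure D4:**
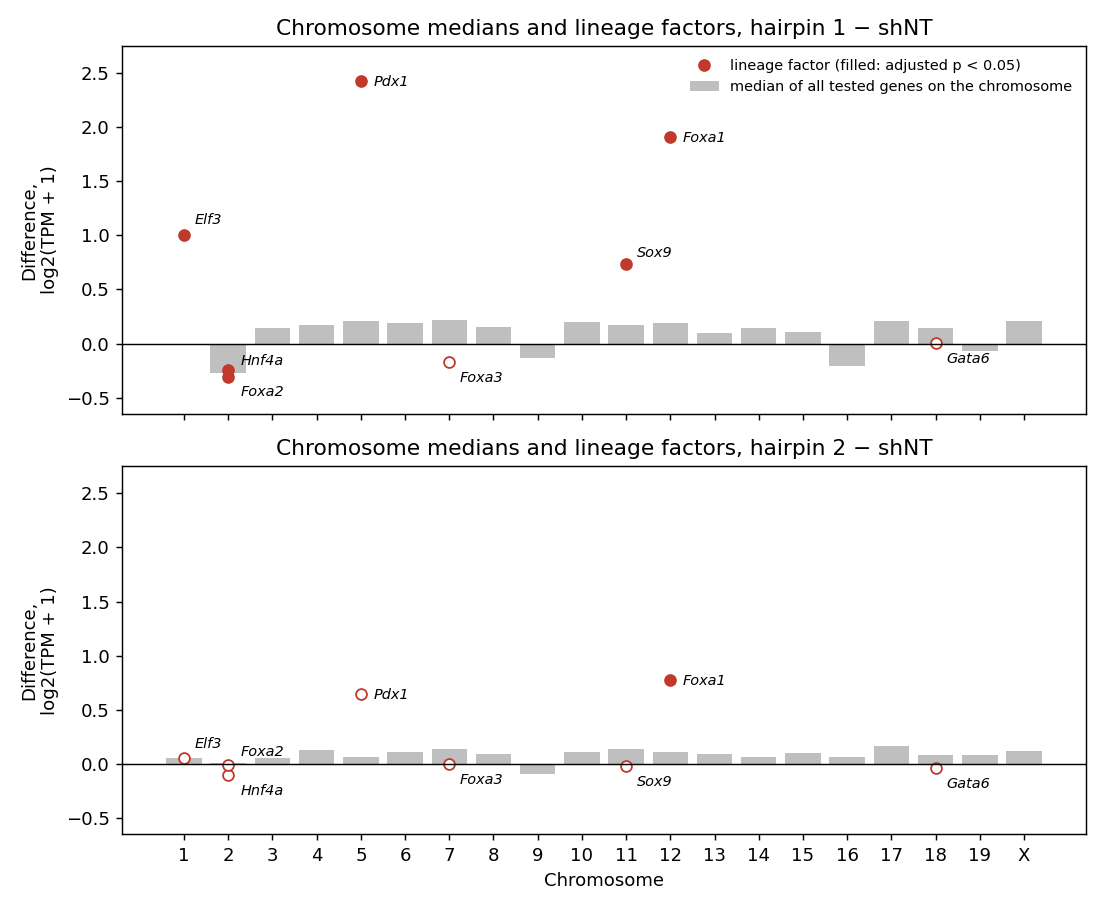
Grey bars are the median log2(TPM + 1) difference of all tested genes on each chromosome and points are the lineage factors, for hairpin 1 minus shNT (upper panel) and hairpin 2 minus shNT (lower panel). Hnf4a and Foxa2 lie at the chromosome 2 bar of -0.27 in the upper panel, while Pdx1, Foxa1, Elf3 and Sox9 stand well above the bars of their chromosomes.

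Gata6 (chr18:11052064-11085635), the zinc-finger factor used as a marker of the classical subtype, had 21.9 and 22.6 TPM with hairpin 1, 21.3 and 21.9 TPM with hairpin 2, against 23.4 and 21.1 TPM with shNT. The shNT libraries overlapped those of each hairpin, while both hairpin 1 libraries were just above both hairpin 2 libraries (hairpin 2 minus hairpin 1 -0.04, limma adjusted p = 0.633). The difference from shNT was 0.00 with hairpin 1 (95% interval -0.15 to 0.16, limma adjusted p = 0.975) and -0.04 with hairpin 2 (interval -0.19 to 0.11, adjusted p = 0.699). Relative to the median of all genes these are -0.10 and -0.13. Under median-ratio scaling the hairpin 1 value was -0.08, and with small-RNA entries left out -0.17, neither past the threshold. The antisense transcript 1010001N08Rik overlaps Gata6 and had 2.23 to 4.23 TPM over the 6 libraries; whether the quantification used strand is not given in the sources used here, so reads of overlapping genes on opposite strands cannot be told apart.

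Pdx1 (chr5:147269959-147275848) had the largest hairpin 1 difference of the 8. It had 9.42 and 10.9 TPM with hairpin 1, 2.97 and 1.64 TPM with hairpin 2, against 1.53 and 0.695 TPM with shNT. Both hairpin 1 libraries were above all others, and each hairpin 2 library was above both shNT libraries, the closest pair being 1.64 and 1.53 TPM. The hairpin 1 mean was 9.13 times the shNT mean (log2 change 2.43 ± 0.26 SE, limma adjusted p = 0.0013). Hairpin 2, with a mean 2.08 times that of shNT, did not pass (0.65 ± 0.26 SE, 95% interval -0.01 to 1.30, adjusted p = 0.157), and it lay below hairpin 1 by -1.78 (adjusted p = 0.00472). The hairpin 2 difference from shNT moved with single libraries, none past the threshold: leaving out shNT replicate 1 gave 0.93, and shNT replicate 2 gave 0.36. Leaving out hairpin 2 replicate 1 gave 0.35, and hairpin 2 replicate 2 gave 0.94. It was 1.02 with a pseudocount of 0.1.

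Pdx1 shares its stretch of chromosome 5 with Cdx2, the homeobox factor of intestinal epithelium, whose nearest end lies 24957 bases away on the opposite strand. Cdx2 had 47.8 and 47.9 TPM with hairpin 1, 0.974 and 1.05 TPM with hairpin 2, against 0.332 and 0.126 TPM with shNT. The hairpin 1 difference was 5.32 (limma adjusted p = 1.63e-05), and hairpin 2 lay below hairpin 1 by -4.60 (2.61e-05). The hairpin 2 difference from shNT was 0.72 (0.0227), a call lost with hairpin 1 left out of the fit (0.0879) and under quantile normalization (0.0537). It was also lost without any single hairpin library, with the difference at 0.75 without hairpin 2 replicate 1 and 0.69 without replicate 2. The homeobox gene Gsx1, on the other side of Pdx1, was at 0 TPM in every library. Polr1d, an RNA polymerase subunit gene next to it, had 257 and 265 TPM with hairpin 1, 260.3 and 268 TPM with hairpin 2, against 207 and 215 TPM with shNT; its hairpin 1 difference of 0.31 (0.00406) was 0.15 under quantile normalization (0.082), 0.13 with small-RNA entries left out (0.235) and 0.097 under chromosome centring (0.157). Its hairpin 2 difference was 0.32 (0.0252), with adjusted p between 0.00624 and 0.238 over the alternatives. The antisense transcript Plut overlaps Pdx1 and had 0.969 and 0.211 TPM with hairpin 1, 0.169 and 0.113 TPM with hairpin 2, against 0.133 and 0.121 TPM with shNT, below the filter. Of 69 tested genes within 5 Mb of Pdx1, 45 passed as higher and 3 as lower with hairpin 1, with a median of 0.31. With hairpin 2, 22 of the 69 passed as higher and 0 as lower, with a median of 0.24. Over the 726 tested chromosome 5 genes, 44.49% passed as higher with hairpin 1 (median 0.21) and 11.98% with hairpin 2 (median 0.07). Among all tested genes these shares were 32.1% and 6.62%. What lies behind the higher values in this stretch was not tested.

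Elf3 (chr1:135253575-135258568) had the highest level of the 8 in any library. It had 125.4 and 126.5 TPM with hairpin 1, 62.3 and 67.1 TPM with hairpin 2, against 63.3 and 61.5 TPM with shNT. Hairpin 1 stood apart from the other groups, which overlapped. The hairpin 1 mean was 2.02 times the shNT mean (log2 change 1.00 ± 0.05 SE, limma adjusted p = 0.000163). Hairpin 2 differed from shNT by 0.05 (95% interval -0.08 to 0.18, adjusted p = 0.52), a value that was -0.05 under median-ratio scaling, and from hairpin 1 by -0.95 (adjusted p = 0.000252). Its neighbour Rnpep, an aminopeptidase gene 4144 bases away, was 0.31 higher with hairpin 1 (adjusted p = 0.0115), a call lost without hairpin 1 replicate 2 (0.0729), under median-ratio scaling (0.0518), under quantile normalization (0.0503) and with small-RNA entries left out, where the difference was 0.14 (0.376). Over the 66 tested genes within 5 Mb the median was -0.09.

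Sox9 (chr11:112782224-112787760) was also highest with hairpin 1. It had 9.02 and 8.85 TPM with hairpin 1, 4.73 and 5.02 TPM with hairpin 2, against 4.88 and 5.04 TPM with shNT. Hairpin 2 overlapped shNT, and hairpin 1 lay above both. The hairpin 1 mean was 1.80 times the shNT mean (0.74 ± 0.06 SE, limma adjusted p = 0.000623). Hairpin 2 differed from shNT by -0.02 (95% interval -0.18 to 0.13, adjusted p = 0.838) and from hairpin 1 by -0.76 (adjusted p = 0.000816). Over the 79 tested genes within 5 Mb the hairpin 1 median was 0.28.

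Genes with the most similar profile were sought for the 3 factors whose group means spanned at least 1 on the log2(TPM + 1) scale, by the Euclidean distance between profiles centred on their own mean over the 6 libraries. The nearest to Elf3 was Hpse, the gene of heparanase, at a distance of 0.0548, with 9.52 and 9.79 TPM with hairpin 1, 4.37 and 4.61 TPM with hairpin 2, against 4.53 and 4.15 TPM with shNT. Rasgrf2, Arrb1, Enpp3 and Ahcyl2 came next, at 0.076 to 0.109. The nearest to Foxa1 was B4galnt1, a ganglioside synthase gene, at 0.286, with 72.6 and 73.5 TPM with hairpin 1, 28.0 and 29.2 TPM with hairpin 2, against 19.1 and 18.6 TPM with shNT, followed by Slurp1, Ephx1, Hmx2 and Ranbp3l. For Pdx1 the nearest were Wnk4 at 0.499, then Aldh3a1, Rasl11a, Pfkp and Nr3c2 at up to 0.747, larger distances than those found for Elf3. Among the 8 factors, Hnf4a and Foxa2 were the closest pair (0.196) and Foxa2 and Pdx1 the most distant (2.92). The distance is not scaled for range, so genes that change little lie close together. Group means spanned 0.24 for Hnf4a and 0.30 for Foxa2. Elf3 and Sox9, with spans of 1.00 and 0.76, lay at 0.283.

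Of 44 other lineage factors listed, all were in the table and 16 passed the filter. The share of all tested genes called was 50.2% with hairpin 1, 9.63% with hairpin 2 and 40.1% between the hairpins. With hairpin 1, 8 of the 16 were higher and 3 lower; with hairpin 2, 1 was higher (Cdx2) and 0 lower, with 2 and 2 at an unadjusted limma p under 0.05; and hairpin 2 against hairpin 1 gave 3 higher and 8 lower. The median change of the 16 was 0.15 with hairpin 1 and -0.01 with hairpin 2. Sox2, a factor of the anterior foregut and stomach, had 10.2 and 9.39 TPM with hairpin 1, 0.0449 and 0.14 TPM with hairpin 2, against 0.0708 and 0.0644 TPM with shNT (hairpin 1 difference 3.33, limma adjusted p = 4.57e-05). Nkx2-3, a homeobox factor of the gut, had 10.04 and 9.44 TPM with hairpin 1, 0.831 and 1.17 TPM with hairpin 2, against 1.24 and 0.947 TPM with shNT (2.36, adjusted p = 0.000177).

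Ehf, the epithelial ETS factor closest in kind to Elf3, had 2.1 and 1.83 TPM with hairpin 1, 0.481 and 0.543 TPM with hairpin 2, against 0.114 and 0.184 TPM with shNT (1.37, adjusted p = 0.000777). The Krüppel-like factor Klf4 had 116 TPM in both hairpin 1 libraries, 76.2 and 81.9 TPM with hairpin 2, against 75.3 and 70.2 TPM with shNT (0.67, adjusted p = 0.000646). Sox4 was lower, with 53.5 and 52.0 TPM with hairpin 1, 95.4 and 99.6 TPM with hairpin 2, against 112 and 99.1 TPM with shNT (-0.98, adjusted p = 0.000355). Hhex, a factor of ventral foregut and delta cells, was lower by -0.74 with hairpin 1 (adjusted p = 0.00145), and Gata4, the partner of Gata6 in early pancreas, by -0.26 (0.00652).

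Klf5, Foxq1 and Onecut2 passed as higher with changes of 0.22 to 0.30 and did not pass under median-ratio scaling (adjusted p = 0.141, 0.0888 and 0.0608); without hairpin 1 replicate 1 the count of 8 became 5. Hes1 and Meis2 were among those that did not pass with hairpin 1. The acinar factor Ptf1a did not exceed 0.0418 TPM, Nr5a2 did not exceed 0.0922 TPM, and the endocrine factors Nkx6-1, Nkx2-2, Neurod1, Pax4 and Isl1 were at 0 in every library.

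**Figure D5:**
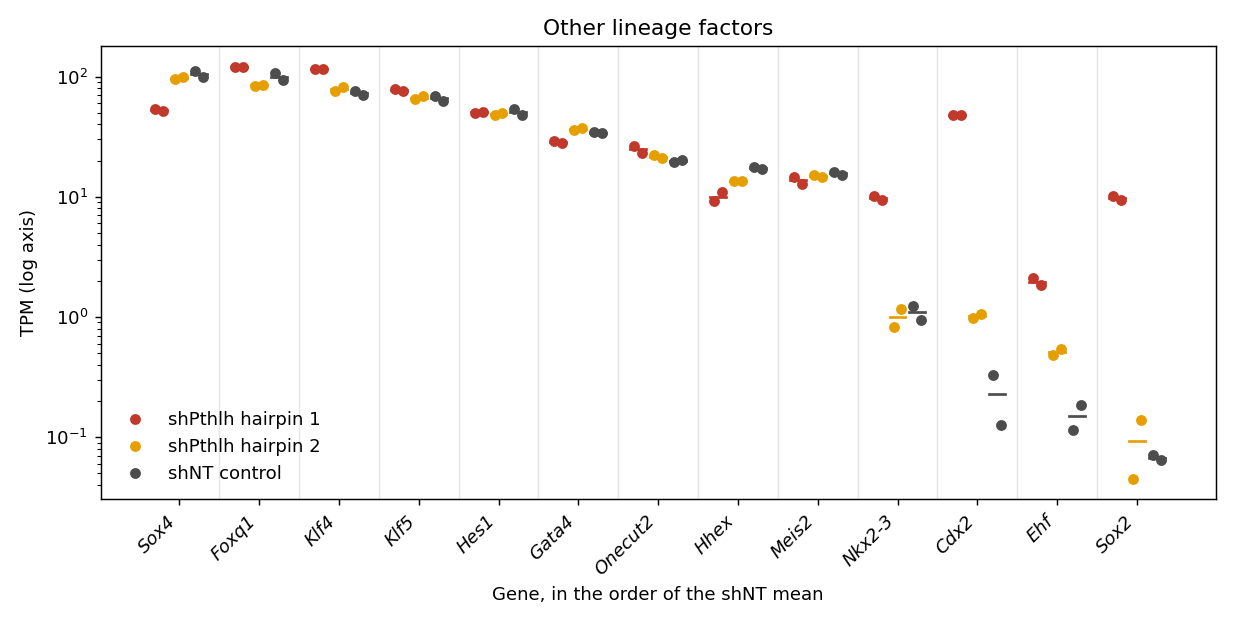
TPM on a log axis of 13 of the 16 other lineage factors that passed the filter, with 1 point per library and a line at each group mean (hairpin 1, hairpin 2 and shNT from left to right). Cdx2, Sox2, Nkx2-3 and Ehf are highest in both hairpin 1 libraries, and Sox4 is lowest there.

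Genes known as targets or companions of these factors did not share a direction. Of 29 genes tied to the classical subtype, 28 were in the table and 15 passed the filter. Of these, 10 were higher and 2 lower with hairpin 1, and 4 higher and 3 lower with hairpin 2. The shares over all tested genes were 32.1% higher and 18.1% lower with hairpin 1, and 6.62% and 3.0% with hairpin 2. The 2 lower hairpin 1 calls were 1 without shNT replicate 1 or hairpin 1 replicate 1. Lgals4, the gene of a gut galectin, had 195 and 190 TPM with hairpin 1, 31.2 and 29.4 TPM with hairpin 2, against 19.2 and 18.7 TPM with shNT (3.27, limma adjusted p = 8.31e-06). Tff2, a mucosal trefoil peptide gene, had 29.9 and 26.8 TPM with hairpin 1, 15.5 and 9.05 TPM with hairpin 2, against 2.91 and 2.35 TPM with shNT (3.02, adjusted p = 0.00049). Erbb3, a receptor of the EGFR family, was 2.03 higher with hairpin 1 (0.000269) and 0.18 above shNT with hairpin 2 without passing (0.369). Anxa10, the gene of a gastric annexin, was 1.22 higher with hairpin 1 (0.000205) and lower by -0.52 with hairpin 2 (0.0209); it had 167 and 163 TPM with hairpin 1, 45.8 and 52.2 TPM with hairpin 2, against 69.6 and 71.3 TPM with shNT. Ctse, the gene of gastric cathepsin E, was lower, with 43.8 and 42.1 TPM with hairpin 1, 67.6 and 75.7 TPM with hairpin 2, against 118 and 122 TPM with shNT (-1.46, 0.000118). The hairpin 2 counts rested on both of its libraries: without hairpin 2 replicate 1 they were 0 and 0, without replicate 2 they were 1 and 0, and without either hairpin 1 library 2 and 1; of all 11549 genes, 6 passed as higher and 0 as lower without hairpin 2 replicate 1 (2341 in either direction at an unadjusted p under 0.05) and 8 and 1 without replicate 2.

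Of 24 hepatic and enteric genes known as HNF4A targets, 11 passed the filter. With hairpin 1, 3 were higher and 1 lower, where 50.2% of all tested genes were called. With hairpin 2, 2 were higher and 0 lower (0 lower also at an unadjusted limma p under 0.05), where 9.63% were called. The lower hairpin 1 count was 2 without either shNT library. Apob, the structural apolipoprotein of chylomicrons, had 6.78 and 5.83 TPM with hairpin 1, 28.7 TPM in both hairpin 2 libraries, against 29.3 and 30.7 TPM with shNT (-2.09, limma adjusted p = 6.74e-05). Fabp1, a fatty acid carrier gene, had 2.23 and 1.7 TPM with hairpin 1, had 2.04 and 1.62 TPM with hairpin 2, and was listed at 0 in both shNT libraries. Apoa2 had 4.73 and 3.69 TPM with hairpin 1, 5.16 and 5.81 TPM with hairpin 2, against 1.12 and 1.35 TPM with shNT. The summed hepatocyte markers without Trf, given above, were likewise above shNT with each hairpin, while Trf itself was below shNT. Whether the Fabp1 and Apoa2 differences belong with these hepatocyte markers was not tested. The hairpin 2 calls of Fabp1 (0.0118) and Apoa2 (0.00865) ended without hairpin 2 replicate 1 (0.117 and 0.0849) and without replicate 2 (0.0767 and 0.0855).

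Of 15 genes tied to SOX9 in ducts and cartilage, 9 passed the filter. With hairpin 1, 2 were higher and 2 lower, where 50.2% of all tested genes were called. With hairpin 2, 0 were higher and 4 lower, where 9.63% of all tested genes were called. No gene of this list was higher with hairpin 2 at an unadjusted limma p under 0.05 either. Krt19, the duct keratin gene, had 990 and 988 TPM with hairpin 1, 428 and 444 TPM with hairpin 2, against 435 and 418 TPM with shNT (1.21, limma adjusted p = 0.000116). Prom1, a progenitor surface protein gene, was 0.68 higher with hairpin 1 (0.00108) and lower by -0.41 with hairpin 2 (0.0297). Krt7 was lower by -0.30 with hairpin 1 (0.00566), a call lost without hairpin 1 replicate 1 (0.0543); the lower hairpin 1 count was 1 without either hairpin 1 library. The 4 hairpin 2 calls were 0 without either hairpin 2 library and 1 without either hairpin 1 library. None of 10 beta-cell genes known as PDX1 targets passed the filter; Ins1, Ins2, Nkx6-1, Glp1r and Pcsk1 were at 0 TPM in every library, those with the higher Pdx1 values included.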

How the data were processed

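RNA was measured in 6 libraries of mouse KPCY pancreatic tumour cells, 2 each for hairpin 1, hairpin 2 and shNT, grouped by sample title. Extraction used Qiagen RNeasy kits and Novogene built the libraries, per the labels' protocols. The authors deposited a table of TPM, scaled to a total of 1000000 per library; Salmon, R 3.5, DESeq2 and the mm10 build are named in the submitters' processing notes, with no version of Salmon and no role for DESeq2. TPM keeps no read number, so the depth is unknown and no counting interval is given.

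TPM was used as deposited. Genes with at least 1 TPM in at least 2 libraries (11549 of 24493) were tested on log2(TPM + 1) with limma 3.58.1 in R 4.3.3: 3 group means over all 6 libraries, a variance prior with a trend over mean expression, and Benjamini-Hochberg adjustment over all tested genes at 0.05. A fold change on this scale understates the change of low genes. The script was tested on simulated data. Pthlh fell under the filter and is given as values. GENCODE M21 (GRCm38) placed 98.8% of tested genes.

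The 8 genes and all gene lists were chosen with earlier results of these data known. By a rule, the text names all 8 genes, the other lineage factors with the highest levels or largest called changes, up to 5 genes per list by largest called change, the 5 nearest profiles and the adjacent genes. Cdx2, Ehf and others stand in more than 1 list. Some listed genes that the rule names are not reported here. Alternatives were 2 pseudocounts (0.1 and 0.5), other filters, scalings and variance settings, a replicate term, chromosome centring, pooled hairpins and each library left out.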

Additional observations from a re-analysis of the deposited data

Results flagged for a closer look

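For 6 of the 8 lineage factors the change against shNT differed between the hairpins, tested as hairpin 2 minus hairpin 1 with limma and adjusted over all 11549 genes. Both changes share the shNT libraries, which drop out of this difference. Of all tested genes, 40.1% passed in this comparison, 19.9% as higher and 20.2% as lower. With hairpin 2, 4 factors lay below hairpin 1: Pdx1 by -1.78 on the log2(TPM + 1) scale, Foxa1 by -1.13, Elf3 by -0.95 and Sox9 by -0.76. The other two lay above it, Foxa2 by 0.29 and Hnf4a by 0.14. For each of these 6 genes both hairpin 2 libraries were on the same side of both hairpin 1 libraries. That was also so for Gata6 and Foxa3, which did not pass, so this separation does not set the 6 apart. The share of all tested genes separated in this way was not counted. The Hnf4a difference stood at an adjusted p of 0.0497, and the Hnf4a and Foxa2 differences lay beside a chromosome 2 median of 0.28 in the same comparison. Pthlh had 0.0423 and 0.263 TPM with hairpin 2, against 0 and 0.106 TPM with hairpin 1 (difference 0.13, 95% interval -0.18 to 0.44, unfiltered limma fit, adjusted p = 0.533). Hairpin, clone and any library batch cannot be told apart here.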

How the results depend on the processing

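Over 18 alternatives, 536 values of the 8 factors were recomputed: 472 kept their direction and their side of the threshold, 42 kept the direction and lost the call, 0 gained one and 22 changed sign. The hairpin 1 calls of Foxa1, Elf3, Pdx1 and Sox9 and their calls between the hairpins held in every alternative that was run. TPM keeps no read number, so what depth limits is unknown. Calls over all genes fell in every comparison when a hairpin library was left out, though not all were lost. A call lost there is therefore not particular to that gene. Where a cause is not named here, it was not tested.

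Counts of the 8 factors moved as follows. Hairpin 1 lower (2) was 0 under chromosome centring. There 1 gene was lower at an unadjusted p under 0.05 (t-test on the limma SE), and it was neither Hnf4a nor Foxa2. With single libraries left out, the hairpin 1 change ran from -0.28 to -0.21 for Hnf4a and from -0.33 to -0.28 for Foxa2. Hairpin 2 higher (1) was 0 with only the compared groups fitted (1 unadjusted) and 0 to 1 with single libraries left out. In the averaged knockdown, higher (4) was 0 with pooled hairpins (1 unadjusted), and lower (2) was 0 with pooled hairpins and under chromosome centring (0 unadjusted in both), 1 with 1 variance prior, and 0 to 1 with single libraries left out. Hairpin 2 minus hairpin 1 higher (2) was 1 under both pseudocounts, the 5 TPM filter, median-ratio scaling, quantile normalization, small-RNA removal and 1 variance prior, 0 under chromosome centring (0 unadjusted), and 0 to 2 with single libraries left out.

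Among other lineage factors, hairpin 1 higher (8) was 5 under the 5 TPM filter, median-ratio scaling, quantile normalization, small-RNA removal and chromosome centring, and 5 to 7 with single libraries left out, and hairpin 1 lower (3) was 5 with no filter. Hairpin 2 higher (1) was 0 under quantile normalization (1 unadjusted) and with only the compared groups fitted (2 unadjusted), 2 with 1 variance prior, and 0 to 1 with single libraries left out; hairpin 2 lower (0) was 0 to 2 there. Hairpin 2 minus hairpin 1 lower (8) was 5 under the 5 TPM filter, which tests fewer genes.

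Signs that changed belonged to small differences. Gata6 with hairpin 1 was -0.083 under median-ratio scaling, -0.085 under quantile normalization, -0.17 without small RNAs, -0.14 under chromosome centring and -0.068 to 0.073 with single libraries left out; with hairpin 2 it was -0.11 to 0.032, in the average -0.088 to 0.053, and between the hairpins 0.00 (0.0034) without small RNAs. Elf3 with hairpin 2 was -0.046 under median-ratio scaling, -0.031 under quantile normalization, -0.081 without small RNAs, 0.00 (-0.000299) under chromosome centring and -0.0016 to 0.10 with single libraries left out. With single libraries left out, Foxa2 with hairpin 2 was -0.053 to 0.034, Foxa3 with hairpin 2 -0.16 to 0.15 and in the average -0.24 to 0.068, and Sox9 with hairpin 2 -0.057 to 0.015. Hnf4a under chromosome centring was 0.025 with hairpin 1 and -0.14 between the hairpins.

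Replicate numbers did not pair the libraries: same-numbered deviations correlated at 0.021, 0.015 and -0.044. With the replicate block, hairpin 2 calls over all genes were 163 higher and 113 lower, against 765 and 347 without it; hairpin 2 minus hairpin 1 higher became 1 of the 8 factors, and hairpin 2 higher became 0 of the other lineage factors (2 unadjusted). Median-ratio scaling gave 232 and 543 hairpin 2 calls, and 2767 higher and 2678 lower with hairpin 1, against 3702 and 2096.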

Other observations

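Partners and competitors of the lineage factors were described from a list of 22 genes, of which 18 passed the filter. The share of all tested genes called was 50.2% with hairpin 1 and 9.63% with hairpin 2. With hairpin 1, 4 were higher and 4 lower than with shNT; with hairpin 2, limma called 0 and 0 (3 higher and 3 lower at an unadjusted p under 0.05), and 2 were lower without shNT replicate 2. Nr2f1, an orphan nuclear receptor of the COUP-TF family that can occupy HNF4A sites, had 15.2 and 16.2 TPM with hairpin 1, 5.002 and 5.49 TPM with hairpin 2, against 6.17 and 4.96 TPM with shNT (hairpin 1 difference 1.35, limma adjusted p = 0.00049). Ncoa1, a nuclear receptor coactivator gene, was 0.91 higher with hairpin 1 (adjusted p = 0.00187). Tle4, a Groucho-family corepressor gene, had 3.52 and 3.81 TPM with hairpin 1, 6.06 and 7.20 TPM with hairpin 2, against 6.29 and 6.71 TPM with shNT (-0.68, adjusted p = 0.00278). Crebbp, a histone acetyltransferase gene, was lower by -0.59 with hairpin 1 (adjusted p = 0.0015), while its paralogue Ep300 differed by 0.00 to 2 decimals (0.976).

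Of 24 relatives from the same protein families, 9 passed the filter. With hairpin 1, 3 were higher and 3 lower, beside 32.1% and 18.1% of all tested genes. Gata5, a further GATA factor of gut endoderm, had 28.5 and 29.7 TPM with hairpin 1, 40.4 and 43.2 TPM with hairpin 2, against 37.3 and 38.8 TPM with shNT (-0.37, adjusted p = 0.00312); it is also on chromosome 2, and its difference was -0.10 (0.173) under chromosome centring. The 3 GATA genes Gata4, Gata5 and Gata6 thus lay within 21.1 to 43.2 TPM in every library, and Gata3 at 0.885 to 1.7 TPM. Hnf4g, the closest relative of Hnf4a, had 0.72 and 0.514 TPM with hairpin 1, 0.0378 and 0.0895 TPM with hairpin 2, against 0.053 and 0 TPM with shNT, below the filter.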
